A study of Homo sapiens with 6 samples.

Results

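The vanins and the enzymes of coenzyme A synthesis are 10 genes. They comprise the vanins VNN1, VNN2 and VNN3, the pantothenate kinase family PANK1, PANK2, PANK3 and PANK4, and the later enzymes PPCS, PPCDC and COASY. All 10 were found among the 58233 genes listed, and they were chosen by name, with results of these same libraries known. RNA sequencing covered 3 libraries of Huh7 cells, by label a line from a human liver carcinoma, that received a plasmid for the long noncoding RNA gene TP53TG1, and 3 control libraries of the same line that received an empty plasmid. Whether replicates came from separate cultures is not stated in the labels, so p-values below cover only sample-to-sample spread, possibly technical.

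Coenzyme A carries acyl groups in fatty acid synthesis, in fatty acid oxidation and in the citric acid cycle. Cells make it from the vitamin pantothenate. A pantothenate kinase adds the first phosphate, the step at which the pathway is controlled, PPCS then joins the product to cysteine, PPCDC removes a carboxyl group, and COASY, an enzyme with a pair of activities, completes the molecule. Vanins act on the return path: they are pantetheinases, which split pantetheine, a breakdown product of coenzyme A, into pantothenate and cysteamine. VNN1 is anchored at the cell surface, is found in liver and gut epithelium, and in mouse liver is a known target of the fatty acid receptor PPAR alpha.

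The deposited values are read here as FPKM (fragment counts corrected for transcript length and library depth), and the transcripts of a gene were added. Of the 58233 genes, 12853 averaged 1 FPKM or more across the 6 libraries and were tested with limma on log2(FPKM + 1). Of the members, 8 passed this filter and VNN2 and VNN3 did not. Steps in the low values gave an estimated 21000000 to 28700000 fragments per library. TP53TG1 itself had 69.8, 134 and 70.5 FPKM in the TP53TG1 libraries, against 10.6, 5.25 and 6.15 FPKM in the controls, so every library matched its label. TP53TG1 replicate 1 stood apart from the rest, with a score of -97.2 on the first principal component, against 14.6 to 42.1 in 4 libraries and -30.6 in control replicate 1, and its scaling factor was 0.615, against 0.994 to 1.190 in the other 5. Over all tested genes the median log2 fold change was -0.35 as deposited and -0.0087 after median-of-ratios scaling, which divides each library by its median ratio to the average library. Values are therefore given both as deposited and scaled.

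The liver label was not matched by liver products in either group. Albumin (ALB) was between 0.530 and 1.22 FPKM, apolipoprotein A1 (APOA1) between 0.180 and 0.430 FPKM and transthyretin (TTR) at most 0.170 FPKM, whereas KRT20, a keratin of gut epithelium, was at 51.1, 112 and 83.8 FPKM in TP53TG1 libraries and at 171, 151 and 117 FPKM in controls. The cells are therefore called by their label only.

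The 3 vanin genes lie side by side on the minus strand of chromosome 6 (GRCh38, positions from GENCODE release 29). VNN1 is at chr6:132681590-132714049, VNN3 at chr6:132722787-132734765 and VNN2 at chr6:132743870-132763459. Gaps of 8737 bp and 9104 bp separate them, and the whole cluster spans 81870 bp. Related genes can share reads, so the alike stretch of their coding sequence is shown here to let a reader see how far the copies differ. It is 60 nt of exon 3 of each gene, 5′ to 3′ on the coding strand, and capitals mark the 6 positions at which the 3 genes are not all the same:
VNN1, chr6:132694099-132694158: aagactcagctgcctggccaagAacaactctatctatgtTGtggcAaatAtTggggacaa
VNN2, chr6:132755952-132756011: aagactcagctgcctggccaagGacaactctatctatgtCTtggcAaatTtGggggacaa
VNN3, chr6:132728850-132728909: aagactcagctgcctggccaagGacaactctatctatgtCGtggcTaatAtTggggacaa
In this window 54 of 60 bases are the same in all 3 genes, VNN2 differs from VNN1 at 5 and VNN3 differs from VNN1 at 3. Over the coding sequence identity was lower, at 70.6% between VNN1 and VNN2 (1480 aligned bases), 71.8% between VNN1 and VNN3 (819 bases) and 74.1% between VNN2 and VNN3 (819 bases). None of the 3032 windows of 75 nt in the VNN1 transcript occurred in a transcript of another gene. VNN3 had none either, and VNN2 had 3 of 2044, shared with the antisense gene AL032821.1, which averaged 0.0233 FPKM.

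VNN1 had the largest log2 fold change of the 8 tested members. It had 20.4, 62.7 and 73.3 FPKM in TP53TG1 replicates 1, 2 and 3, against 16.1, 14.6 and 13.0 FPKM in control replicates 1, 2 and 3. Every TP53TG1 library was above every control, but TP53TG1 replicate 1 was close to the controls while replicates 2 and 3 were several times higher. The mean was 52.1 ± 28.0 FPKM with TP53TG1 and 14.6 ± 1.57 FPKM in controls (SD, n = 3 each), a ratio of 3.57.

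Scaling drew TP53TG1 replicate 1 away from the controls. Scaled VNN1 values were 33.1, 56.2 and 73.7 FPKM with TP53TG1 and 14.4, 12.3 and 11.0 FPKM in controls, a ratio of means of 4.33. Between libraries of the same number the scaled ratio was 2.30, 4.57 and 6.73, so the direction was the same in all 3 while its size was not. Measured on log2(FPKM + 1), which understates low genes, its log2 fold change was 1.59 (SE 0.47) as deposited and 1.97 (SE 0.32) scaled, and without TP53TG1 replicate 1 it was 2.15 (SE 0.22). By log2 fold change VNN1 was number 45 of the 12853 genes as deposited and number 42 scaled. An estimated 1209, 4297 and 5935 fragments lay behind the TP53TG1 values and 1283, 1035 and 977 behind the control values, so counting error is small beside the spread between TP53TG1 libraries. In bulk RNA, more cells that make VNN1 and more VNN1 RNA per cell cannot be told apart.

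VNN2, known from leukocytes as a surface protein of neutrophils, was near the floor of the data. Its FPKM was 0.470, 0.800 and 0.520 with TP53TG1, against 0.130, 0.140 and 0.0800 in controls. The groups did not overlap, as deposited or scaled, and the ratio of means was 5.11 (6.65 scaled). These values rest on an estimated 7.23, 23.1 and 17.1 fragments with TP53TG1 and 0.979, 1.02 and 2.83 fragments in controls. Rounded and summed, that is 47 against 5 fragments, a depth-adjusted ratio of 10.1. Pooled from estimated fragments, on the contrast the members were chosen on, this ratio was not tested and leaves out the spread between libraries. It differs from the FPKM ratio because different VNN2 transcripts, of unequal length, were listed in different libraries: 8 of 16 were above 0 anywhere.

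VNN3, which newer annotation names VNN3P, as a pseudogene, was listed at 0.190, 0.470 and 0.300 FPKM with TP53TG1 and at 0 in all 3 controls. About 2.96, 12.9 and 11.2 fragments lay behind the TP53TG1 values. No fold is given against a group listed at 0. Of the 14354 genes that were above 0 somewhere with a mean under 1 FPKM, 1.11% were higher in every TP53TG1 library than in every control as deposited (2.58% scaled), and 0.307% were at 0 in the controls and above 0 in all 3 TP53TG1 libraries.

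VNN1 thus held nearly all vanin RNA. Its share of the summed vanin FPKM was 96.9%, 98.0% and 98.9% with TP53TG1 and 99.2%, 99.1% and 99.4% in controls. Leukocytes are a known source of VNN2, and leukocyte markers were low throughout. Of 10, 4 (FCGR3B, S100A8, S100A9 and MS4A1) were listed at 0 in all 6 libraries, and 1 (CD14) reached a mean of 1 FPKM. The 10 summed to 2.07 to 2.49 FPKM with TP53TG1 and 1.29 to 3.17 FPKM in controls. Scaled, they summed to 4.05, 1.85 and 2.25 FPKM with TP53TG1 and to 2.84, 1.39 and 1.09 FPKM in controls, which overlap. Once scaled, ITGAM alone was higher without overlap, where 2.58% of genes with a mean under 1 FPKM were. As deposited, VNN2 itself was at most 0.800 FPKM, below each of these sums, and its cell source was not tested.

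**Figure D1:**
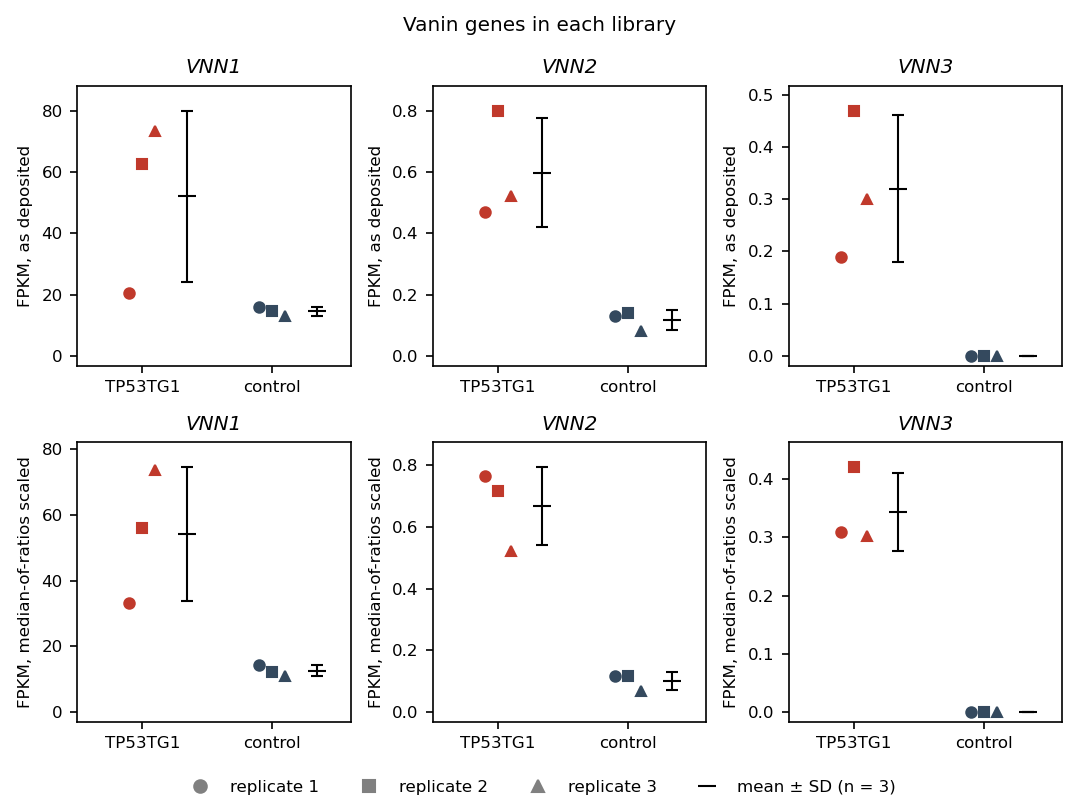
FPKM of VNN1, VNN2 and VNN3 in each library, as deposited (top) and median-of-ratios scaled (bottom), with TP53TG1 libraries left and controls right; symbols mark replicate numbers and bars the mean ± SD (n = 3). In each panel the 3 TP53TG1 libraries lie above the 3 controls, and VNN1 in TP53TG1 replicate 1, at 20.4 FPKM as deposited, lies nearest to them.

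The 7 genes of coenzyme A synthesis lay close to the bulk of all genes. Their log2 fold changes had a median of -0.42 as deposited, beside -0.35 over all tested genes, and -0.033 scaled, beside -0.0087. Among the 8 tested members, 4 lay above the median of all genes, on either scale.

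PANK1, PANK2 and PANK3 phosphorylate pantothenate. PANK2, the mitochondrial form, mutated in pantothenate kinase-associated neurodegeneration, was the highest of them, with 9.58, 16.2 and 17.1 FPKM with TP53TG1 and 17.9, 17.4 and 15.2 FPKM in controls. The groups overlapped, and TP53TG1 replicate 1 was the low library. Scaled, PANK2 lay between 14.5 and 17.2 FPKM with TP53TG1 and between 12.8 and 16.0 FPKM in controls, with a log2 fold change of 0.12 (SE 0.21), against -0.25 (SE 0.33) as deposited.

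PANK3, a cytosolic kinase, had 2.91, 11.9 and 7.64 FPKM with TP53TG1 and 8.85, 13.8 and 10.3 FPKM in controls. The groups overlapped, as deposited and scaled, and TP53TG1 replicate 1 was again lowest. The log2 fold change was -0.64 (SE 0.47) as deposited and -0.30 (SE 0.32) scaled, and without TP53TG1 replicate 1 it was -0.16. Of the 75-nt windows of its long transcript, 13.9% also occur in other genes, mainly the pseudogene SLC2A3P1, so some of its reads may have been divided.

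PANK1 was expressed at the lowest level of the 7, with 0.530, 1.52 and 1.93 FPKM with TP53TG1 and 1.16, 1.39 and 1.21 FPKM in controls. Its TP53TG1 libraries lay on both sides of the controls, with a log2 fold change of -0.0047 (SE 0.34) as deposited and 0.18 (SE 0.27) scaled. Only 24.9 fragments were estimated in TP53TG1 replicate 1, and a processed pseudogene, AL157400.5, shares 621 exonic bases on the same strand and averaged 1.40 FPKM. PANK4, which carries a phosphatase domain and whose kinase-like part is held to be inactive, had 7.16, 11.6 and 14.8 FPKM with TP53TG1 and 12.8, 13.0 and 11.7 FPKM in controls, which overlap. Its log2 fold change was -0.20 (SE 0.35) as deposited and 0.17 (SE 0.23) scaled.

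Introns of PANK1, PANK2 and PANK3 hold the genes of related microRNAs, shown here because host and microRNA share a locus. The mature sequences are from RefSeq (GRCh38.p14), 5′ to 3′, with the seed, bases 2 to 8, in capitals:
hsa-miR-107 (PANK1, chr10:89592756-89592778, minus strand): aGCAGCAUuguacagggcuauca
hsa-miR-103a-3p (PANK3, chr5:168560904-168560926, minus strand, and PANK2, chr20:3917541-3917563, plus strand): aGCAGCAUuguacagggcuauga
Both have the same seed. The microRNA genes MIR107, MIR103A1 and MIR103A2 were listed at 0 in all 6 libraries, so these tables carry values for the hosts and none above 0 for the microRNAs.

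The later enzymes read lower in the TP53TG1 libraries as deposited and overlapped once scaled. PPCS, which joins phosphopantothenate to cysteine, had 22.7, 34.3 and 32.5 FPKM with TP53TG1 and 38.5, 43.6 and 38.1 FPKM in controls. The groups did not overlap as deposited, but scaled they spanned 30.7 to 36.9 FPKM with TP53TG1 and 32.1 to 36.7 FPKM in controls. The log2 fold change was -0.43 (SE 0.28) as deposited and -0.041 (SE 0.20) scaled.

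PPCDC, the decarboxylase, had 16.9, 20.3 and 8.82 FPKM with TP53TG1 and 21.9, 21.8 and 30.4 FPKM in controls. The groups did not overlap as deposited, and here the low library was TP53TG1 replicate 3. Scaled, the values were 27.4, 18.2 and 8.87 FPKM with TP53TG1 and 19.6, 18.3 and 25.6 FPKM in controls, which overlap. The log2 fold change was -0.71 (SE 0.37) as deposited and -0.32 (SE 0.39) scaled, and without TP53TG1 replicate 3 it was -0.38 as deposited.

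COASY, the last enzyme, had 22.9, 31.1 and 29.9 FPKM with TP53TG1 and 47.3, 37.2 and 30.0 FPKM in controls. The groups overlapped, with control replicate 3 level with TP53TG1 replicate 3. The log2 fold change was -0.42 (SE 0.30) as deposited and -0.033 (SE 0.26) scaled.

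**Figure D2:**
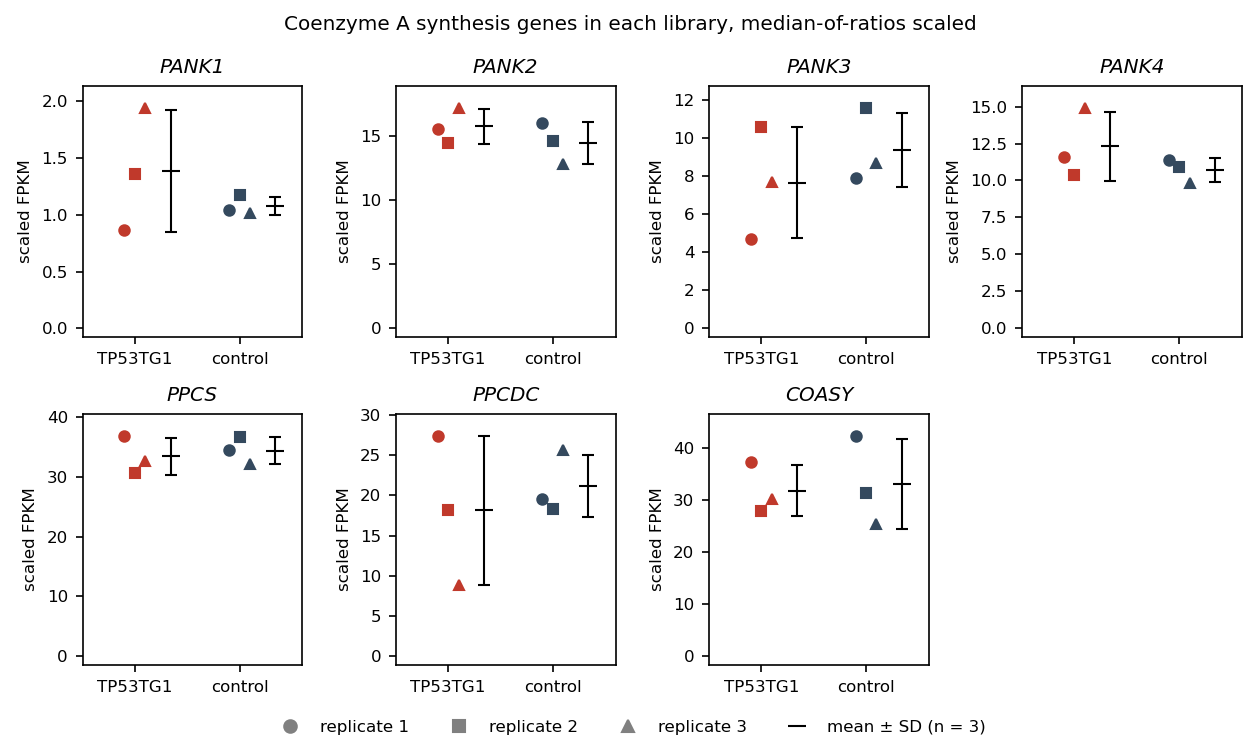
Scaled FPKM of the 7 coenzyme A synthesis genes in each library, TP53TG1 left and control right; symbols mark replicate numbers and bars the mean ± SD (n = 3). In all 7 panels the groups overlap, and PPCDC spreads most among the TP53TG1 libraries, from 8.87 to 27.4 FPKM.

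FPKM is a value per length, so levels can be set side by side between genes. In controls the order of means was PPCS (40.1 ± 3.10 FPKM), COASY (38.2 ± 8.67), PPCDC (24.7 ± 4.94), PANK2 (16.8 ± 1.44), VNN1 (14.6 ± 1.57), PANK4 (12.5 ± 0.699), PANK3 (11.0 ± 2.53), PANK1 (1.25 ± 0.121), VNN2 (0.117 ± 0.0321) and VNN3 (listed at 0). Among neighbours in this order, PPCS and COASY, COASY and PPCDC, PANK2 and VNN1, and PANK4 and PANK3 overlapped in their control libraries, and VNN1 and PANK4 met at 13.0 FPKM. With TP53TG1 the order began with VNN1 (52.1 ± 28.0 FPKM), followed by PPCS (29.9 ± 6.26), COASY (28.0 ± 4.42), PPCDC (15.3 ± 5.90) and PANK2 (14.3 ± 4.13), and of these neighbours COASY and PPCDC alone did not overlap. Among the 10 members VNN1 was number 3, 1 and 1 in the TP53TG1 libraries and number 5 in each control.

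Because the members were chosen on this contrast, the counts below describe them and support nothing. With limma and Benjamini-Hochberg adjustment, 0 of the 8 tested members passed an adjusted p of 0.05, where 0.00778% of all tested genes did, that is 1 gene. At an unadjusted p under 0.05, 1 member (VNN1) was higher and 0 were lower, where 0.436% of all genes were higher and 1.91% lower. Blocking on replicate number, 1 member (VNN1, higher) passed the adjusted threshold, where 1.49% of all genes did and 0.584% did on the higher side. That fit took its spread from all genes pooled, not from each gene. After scaling without the block 0 members passed, where 0.0156% of genes did. With the block and scaling together 0 members passed, where 0.0467% of genes did. As deposited, 1 tested member (VNN1) was higher without overlap and 2 (PPCS and PPCDC) lower, where 0.428% of genes were higher and 13.3% lower in that way. Scaled, 1 (VNN1) was higher and 0 lower, beside 1.89% and 2.18%.

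**Figure D3:**
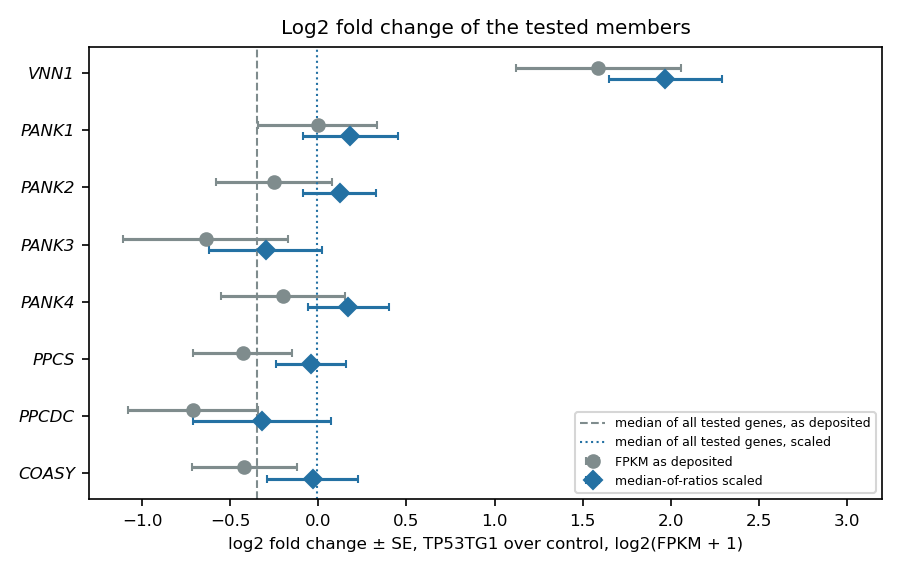
Log2 fold change ± SE, TP53TG1 over control on log2(FPKM + 1), of the 8 tested members, as deposited (grey circles) and scaled (blue diamonds); dashed and dotted lines mark the medians of all tested genes, -0.35 and -0.0087. VNN1 lies at 1.59 and 1.97, and the 7 coenzyme A genes lie between -0.71 and 0.18.

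The annotated transcripts behind the members showed how firmly each gene value was held. VNN1 has 1 listed transcript, of 3106 nt in 7 exons, so its value is undivided. PANK4 was carried mainly by PANK4-201, at 74.6 ± 1.87% of its FPKM with TP53TG1 and 72.4 ± 8.81% in controls (SD, n = 3 each). PANK2 had between 46.6% and 54.2% of its FPKM in protein-coding transcripts with TP53TG1 and between 47.0% and 51.3% in controls; a transcript marked for nonsense-mediated decay, PANK2-202, held 35.3 ± 2.41% and 34.0 ± 2.83%. The PANK2-210 transcript, of 661 nt, lies wholly within exons of RNF24 on the opposite strand, and without stated strand information reads of both cannot be told apart.

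In PPCDC, the protein-coding transcript PPCDC-205 held between 45.0% and 52.2% of the gene's FPKM in the TP53TG1 libraries, against 38.8%, 36.9% and 30.5% in controls. The groups did not overlap. No test was made, and the share of all transcripts that separate in this way was not counted, so no shift in transcript use is read from it. PPCDC-211, a protein-coding transcript of 464 nt, held 24.2%, 30.3% and 0% with TP53TG1 and 24.9%, 33.4% and 46.3% in controls. Its 14.1 FPKM in control replicate 3 rest on an estimated 68.9 fragments, and in TP53TG1 replicate 3, the library with the lowest PPCDC, it was listed at 0.

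Other shares moved between libraries within a group. PANK1-203 held 0%, 35.5% and 85.0% with TP53TG1 and 97.4%, 59.7% and 68.6% in controls, and PANK1-202 held all of PANK1 in TP53TG1 replicate 1. COASY-212, a retained-intron transcript, held 32.6%, 0% and 0% with TP53TG1 and 13.3%, 1.40% and 5.23% in controls, so both libraries numbered 1 were the high ones. PANK3-202, of 313 nt, held 41.8% of PANK3 in control replicate 1 on an estimated 5.20 fragments; a short transcript turns few fragments into many FPKM. The long transcript PANK3-201 alone had 2.59, 11.7 and 6.90 FPKM with TP53TG1 and 5.15, 12.9 and 10.1 FPKM in controls, which overlap.

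**Figure D4:**
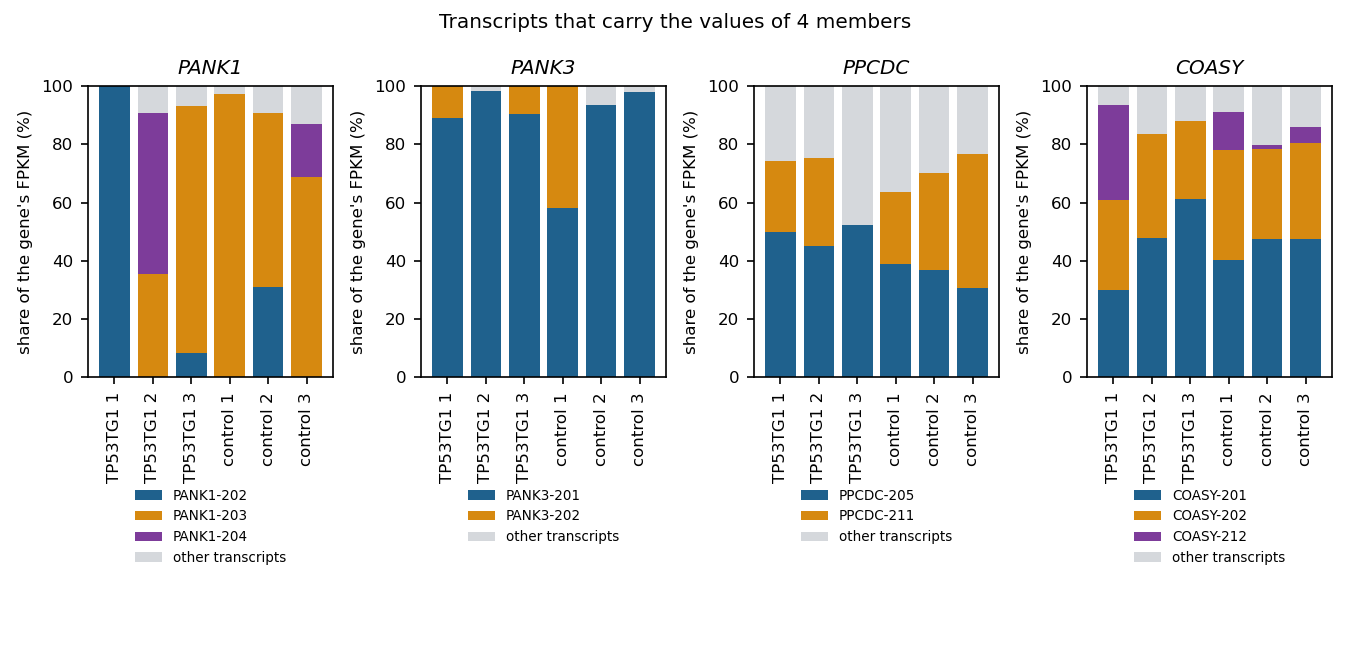
Share of a gene's FPKM (%) held by each named transcript in each library for PANK1, PANK3, PPCDC and COASY, TP53TG1 libraries left and controls right, with the remaining transcripts in grey. PPCDC-205 is at 45.0% or more in each TP53TG1 library and at 38.8% or less in each control (not tested), while PANK1 transcripts change between libraries of 1 group.

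Genes around the pathway were read from the same fit, and none passed the adjusted threshold in any list. Transporters of pantothenate and coenzyme A had 2 of 3 genes tested and a scaled median log2 fold change of -0.10; SLC5A6, which imports pantothenate, was at 0.087 and SLC25A16, a mitochondrial carrier, at -0.30. Genes of coenzyme A breakdown had 4 of 6 tested and a scaled median of 0.044; among them NUDT7 was at -0.17 and NUDT8 at 0.14, both hydrolases of coenzyme A in organelles. ENPP1, an ectoenzyme, was at -0.016 and NUDT19 at 0.10.

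All 8 genes of phosphopantetheine transfer and carrier proteins were tested, with a scaled median of -0.055. The mitochondrial carrier protein NDUFAB1 was at 0.099, OXSM, which extends acyl chains on it, at -0.23, and the folate enzymes ALDH1L1 and ALDH1L2, whose proteins bear the phosphopantetheine arm, at -0.45 and -0.58. The acyl-CoA synthetases and thioesterases had 15 of 19 tested and a scaled median of -0.063, with ACSL3 at -0.090, ACOT1 at -0.28, ACOT2 at -0.16 and ACOT13 at -0.17.

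The second product of vanins is cysteamine, which ADO oxidises to hypotaurine. In the cysteamine and taurine list 4 of 9 genes were tested, with a scaled median of -0.10. ADO was at -0.18, the taurine transporter SLC6A6 at -0.023 and biotinidase (BTD), a relative of the vanins, at -0.28. CSAD, which makes hypotaurine from cysteine sulfinate, had 3.61, 2.17 and 2.50 FPKM with TP53TG1 and 1.17, 2.14 and 1.94 FPKM in controls. Its groups did not overlap, by a narrow margin, where 0.428% of all tested genes were higher in that way as deposited and 1.89% scaled. From the lists above, ALDH1L1 and ACOT1 were lower without overlap on both scales, where 13.3% of genes were as deposited and 2.18% scaled. The log2 fold change of CSAD was 0.45 (SE 0.34) as deposited and 0.75 scaled, which did not pass the test.

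PPAR alpha and its targets had 14 of 19 genes tested, a scaled median of -0.11 and no gene called. CPT1A and CPT2, which pass fatty acids into mitochondria, were at -0.19 and -0.18, HADHA at -0.033 and PDK4 at -0.43. The neighbours of the vanin cluster had 6 of 8 matched genes tested and a scaled median of -0.11, with SLC18B1 at -0.33, RPS12 at 0.032, EYA4 at -0.21 and STX7 at -0.098. As deposited, the medians of these 7 lists lay between -0.48 and -0.28, beside -0.35 over all tested genes.

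**Figure D5:**
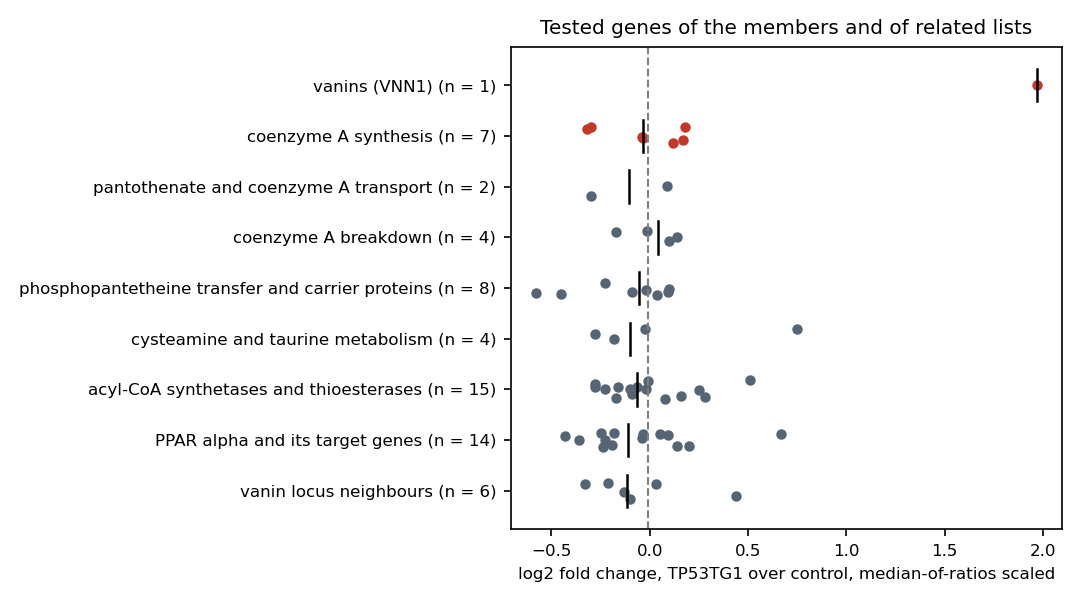
Scaled log2 fold change, TP53TG1 over control, of each tested gene (points) in the vanins, the coenzyme A synthesis genes and 7 related lists, with each list's median (vertical bar) and the median of all tested genes (dashed line, -0.0087). VNN1 lies at 1.97 and the medians of the other lists lie between -0.11 and 0.044.

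Gut epithelium is another known site of VNN1, and its markers were read in the same fit. Of 8 markers, 5 were tested, none passed the adjusted threshold, 4 (VIL1, CDH17, KRT20 and LGALS4) had an unadjusted p under 0.05 on the lower side, where 1.91% of all tested genes did, and CDX1 and FABP2 were listed at 0 throughout. The fifth tested marker, CDX2, overlapped between the groups, with a log2 fold change of -0.32 as deposited and 0.041 scaled. The 8 summed to 92.1, 157 and 111 FPKM with TP53TG1 and to 347, 223 and 180 FPKM in controls, opposite in direction to VNN1. Scaled, they summed to 150, 140 and 111 FPKM with TP53TG1 and to 310, 188 and 151 FPKM in controls. The part of these differences in the VNN1 values was not tested.

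The genes whose pattern over the 6 libraries was most like that of VNN1 were sought among all tested genes, by the root mean square difference of scaled log2 values centred per gene. They were SLCO2B1 (0.327), an organic anion transporter, C1S (0.337) and C1R (0.441), proteases of the first complement component, DKK1 (0.420), a secreted Wnt antagonist, and SOD2 (0.436), the mitochondrial superoxide dismutase. As deposited, SLCO2B1 had 2.63, 9.82 and 8.70 FPKM with TP53TG1 and 2.46, 2.52 and 2.29 FPKM in controls. TP53TG1 replicate 1 was near the controls on this scale only, as the likeness used scaled values, where division by 0.615 raises that library. The other tested members were farther from VNN1, between 0.912 (PANK1) and 1.397 (PPCDC). The measure includes the group difference, so genes with small fold changes lie far from VNN1 by construction.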

How the data were processed

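Total RNA was made into libraries with a TruSeq RNA kit, per the labels' protocols, and the submitters' processing notes list HISAT2, StringTie and GRCh38.p10. Strand, read length and parameters do not appear in these sources. For each of 6 libraries the authors deposited values for 199234 transcripts, taken as FPKM because library totals differ (599081 to 890541) and low values step in whole fragments. In single-transcript genes of 600 to 1500 nt, 87.7% to 90.8% of low values were whole multiples of a step within 0.15, where 30.0% would be without steps; the depth estimate rests on this. Blank symbols (0 to 88000 rows) were filled from the other libraries by transcript. Coordinates and transcript types came from GENCODE release 29, which held 99.8% of transcripts.

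Genes averaging 1 FPKM or more were fitted with limma 3.58.1 in R 4.3.3 (lmFit, eBayes with trend) on log2(FPKM + 1), TP53TG1 minus control, with Benjamini-Hochberg adjustment at 0.05 and no block. The fit was tested on simulated data. Tables were joined with pandas 2.3.3 in Python 3.11.15 and drawn with matplotlib 3.10.9. Fragments behind a transcript were estimated with at least 50 nt of usable length.

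Groups share replicate numbers 1 to 3. Deviations from the group means correlated at 0.710, 0.562 and 0.289 between libraries of the same number, all above 0.1. On that limit the numbers were used as a block in an alternative fit. The labels do not say what a number marks, and unlike numbers reached 0.400. TP53TG1 replicate 3 correlated at 0.302 with control replicate 2, above its 0.289 with control replicate 3. These values therefore do not settle how numbers 2 and 3 pair. The blocked fit left 2 residual degrees of freedom per gene. After eBayes the total was 25706, against 8.84 in the main fit. The blocked p-values as deposited therefore rest on the spread pooled over all genes, not on each gene's own. In limma the adjusted p of VNN1 was 0.000325 with the block and 0.431 with the block and scaling.

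The members and gene lists were chosen with earlier results of these data known. All members are named, with up to 4 tested genes of smallest unadjusted p from each list and the 5 genes most like VNN1. A hepatocyte marker and the sum that includes it are left out. Alternatives were another pseudocount (0.1 or 0.5), no filter or a mean of 5 FPKM, median-of-ratios, upper-quartile and equal-total (TPM) scaling, the block, and leaving libraries out.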

Additional observations from a re-analysis of the deposited data

How the results depend on the processing

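VNN1 kept a positive log2 fold change under every alternative run, between 1.25 (without TP53TG1 replicate 3) and 2.22 (without replicate 1 in both groups). The number of genes called was 1, 0 without the filter, 2 with a mean of at least 5 FPKM, with median-of-ratios or with upper-quartile scaling, 192 with the replicate block and 6 with the block and scaling, and leaving out 1 library gave 0 to 1 (0 without control replicate 1 or control replicate 3). Members called numbered 0, and 1 (VNN1) with the replicate block; no other member's call changed with it. The median log2 fold change of the members, -0.34, was 0.044 with median-of-ratios scaling (with or without the block), -0.085 with equal totals, 0.013 with upper-quartile scaling, -0.046 without replicate 1 in both groups and -0.43 to -0.086 with 1 library left out, the last without TP53TG1 replicate 1. With median-of-ratios scaling, with or without the block, PANK2 was 0.12, PANK4 0.17, PPCS -0.041 and COASY -0.033; with upper-quartile scaling PANK2 was 0.090, PPCS -0.072 and COASY -0.064; with equal totals PPCS was -0.17, and without replicate 1 in both groups COASY was -0.13. Scaling moves the median of all genes by a like amount, from the construction of the factors. The signs of values that passed no test turned in several cases: PANK1 (-0.0047), PANK2 and PANK4 and the median of the members were positive with median-of-ratios and upper-quartile scaling, and without replicate 1 in both groups PANK1 was 0.24, PANK2 0.037 and PANK4 0.083. The median of the coenzyme A breakdown genes was 0.044 with median-of-ratios scaling and 0.018 with upper-quartile scaling. Without TP53TG1 replicate 1, PANK1 was 0.27 and PANK4 0.069, and the medians of the cysteamine and taurine list and of the vanin neighbours were 0.0021 and 0.050. Where a fit left 2 libraries in a group, the spread was pooled over both groups. Depth limits VNN2 and VNN3, which rest on at most 23.1 estimated fragments in a library.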
